A study of Danio rerio with 24 samples.

Results

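GFP- cells sorted from zebrafish larvae 5 h after neomycin were compared with GFP- cells of mock-treated larvae, 3 libraries against 3 of the 24 in the series. The libraries were assigned to these groups by their labels. All larvae were of the line Tg(sqET20), an enhancer trap known for GFP in support cells of the lateral line. The GFP- cells are therefore a mixture of larval cells rather than 1 tissue. The groups used were GFP- cells of larvae exposed at 5 days post fertilization to 300 uM neomycin and left to recover for 5 h, 3 h or 1 h, GFP- cells of mock larvae sampled at 1 h, and the GFP+ cells of the same design, with 3 libraries per group and 8 groups in all. Each library came from living cells of pooled larvae, separated by trypsin and sorted by flow cytometry. The labels do not say whether the 3 libraries of a group came from separate pools. The p-values measure only the spread between libraries within groups, taken over all 24 libraries, and that spread may be technical.

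Neomycin is an aminoglycoside antibiotic that kills the mechanosensory hair cells of the lateral line, whose support cells then divide and replace them. The larval cells outside the GFP gate include red cells, leukocytes, neurons, retina, epidermis and gut. Red cells make heme in a chain of enzymes that begins and ends in the mitochondrion, and the transcription factors gata1a and klf1 switch on both that chain and the globins. Chaperones of the Hsp70 and Hsp90 families fold proteins in every cell and rise when proteins misfold. The circadian clock runs in most zebrafish cells, which sense light directly, and its repressors and output genes follow the time of day.

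The comparison was bound to other differences between the libraries. The 5 h and 3 h libraries carry the experiment date Apr2012, and the 1 h and mock libraries carry Mar2012. Mock cells were sampled at 1 h only, so treatment, date and time of sampling cannot be told apart in the difference between 5 h and mock. Beside the main results stand the differences within Apr2012 (5 h against 3 h) and within Mar2012 (1 h against mock, at the same sampling time). In a principal component analysis of the 12 GFP- libraries, component 1 (19.4% of the variance) placed the Apr2012 libraries between -26.5 and -19.2 and the Mar2012 libraries between 12.4 and 35.4.

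**Figure D1:**
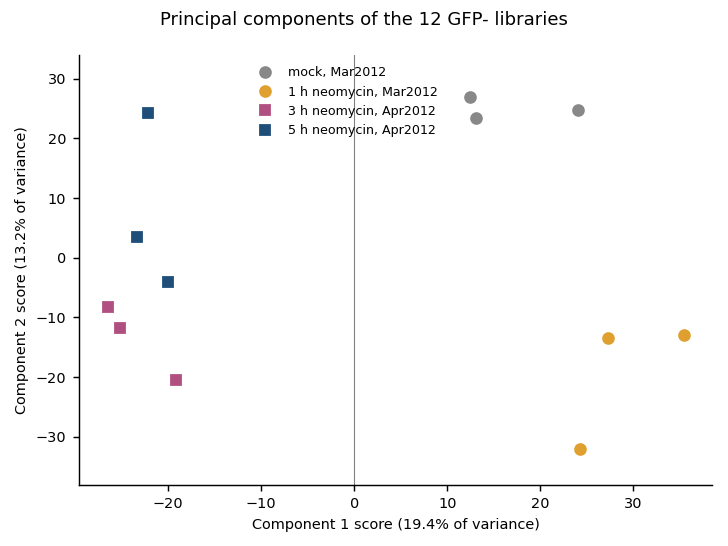
Scores of the 12 GFP- libraries on the first 2 principal components of log2(FPKM + 1), 1 point per library, squares for Apr2012 and circles for Mar2012. Component 1 puts the 3 h and 5 h libraries below 0 and the mock and 1 h libraries above 0, and component 2 (13.2%) puts the 3 mock libraries and 5 h replicate 1 above 20.

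The values are FPKM, fragments scaled to transcript length and library size, so total counts per library are not known and no counting interval is given. FPKM sums over the GFP- libraries ran from 1248477 to 1521674, and 19024 to 19598 genes reached 1 FPKM. Values under 0.15 FPKM gave an estimate of depth relative to the median library of 0.947 to 1.16 in the 5 h libraries and 0.997 to 1.26 in mock. For the sort label, 5 genes listed for the GFP+ sort (TSPAN1, krt15, sox21a, fndc7rs3 and cbln20) were summed. Their level was 45.2 to 65.4 FPKM in GFP- cells at 5 h and 57.5 to 72.6 FPKM in GFP- mock cells, against 5510 to 7090 FPKM in GFP+ mock cells. Most of the GFP- sum was krt15, at 38.6 to 55.9 FPKM at 5 h and 48.0 to 65.1 FPKM in mock. The choice of these genes may rest on earlier results of these data, so the sums are no independent check of the label. Larval tissues were not held evenly by the GFP- cells. Summed epidermis markers stood at 356 to 507 FPKM in GFP- mock cells, against 6530 to 11100 FPKM in GFP+ mock cells. In GFP- mock cells skeletal muscle markers summed to 20.2 to 31.4 FPKM and lens markers to 0.33 to 0.817 FPKM.

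Among 19361 genes with 1 FPKM or more in 3 of the 6 libraries, 123 rose (0.635%) and 135 fell (0.697%) 5 h after neomycin, 258 in all (1.33%). A call here is an adjusted p under 0.05 by limma (Benjamini-Hochberg over all tested genes), and changes are differences in log2(FPKM + 1) ± standard error, which understate the change of low genes. Most changes were modest: the median was 0.76 among the genes that rose and -0.82 among those that fell, and 31 and 47 genes passed a log2 change of 1. At an unadjusted p under 0.05 there were 2819 genes. All 123 genes called higher and 134 of the 135 called lower had no overlap between 5 h and mock libraries. Such separation therefore adds nothing to a call. The split of calls was 162 higher and 103 lower under median-of-ratios scaling, and 271 and 166 under quantile scaling. The count rested on single libraries: it was 72 without 5 h replicate 2, 90 without mock replicate 2, 151 without 5 h replicate 3 and 168 without mock replicate 3. With the spread taken from the 6 libraries alone it was 30.

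Most of the 258 genes differed little between 5 h and 3 h. No gene passed the test between 5 h and 3 h (0 of 19361, 0%, by limma; 1233 at an unadjusted p under 0.05; 6 with the spread of those 6 libraries alone), and the absolute log2 difference was under 0.5 for 117 of the 123 genes that rose and 118 of the 135 that fell. Among the genes that fell, 97 were lower at 5 h than at 3 h and 35 higher (median -0.13). Those that rose divided into 63 higher and 60 lower than at 3 h. Over all tested genes the median of this difference was -0.03. The 258 genes were chosen by values of the same 5 h libraries, which favors lower 5 h values among the falls. The split therefore cannot show whether these genes kept falling after 3 h. Between 1 h and mock, which share a date, 597 genes passed (407 higher, 2.1%, and 190 lower, 0.981%; 3.08% in all). Of the genes higher at 5 h, 8 were also called higher at 1 h, and of those lower at 5 h, 3 were called lower and 2 higher at 1 h. The 1 h and 5 h comparisons share the mock libraries. The 1 h count was 226, 367 and 358 without 1 h replicates 1, 2 and 3, and 348 and 361 without mock replicates 2 and 3.

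The largest rise was that of hsc70 (ENSDARG00000012381), a member of the Hsp70 chaperone family. It stood at 10.8, 26.6 and 16.1 FPKM at 5 h, against 1.397, 1.22 and 0.679 FPKM in mock, a 16.2-fold difference of means. The change was 3.09 ± 0.30 (adjusted p = 2.99e-05) and was called with any 1 of the 6 libraries left out (2.77 to 3.39). All 3 libraries at 5 h lay above all 3 of mock, which the rule for naming the largest rises required. At 1 h it averaged 1.01 ± 0.303 FPKM (SD, n = 3), a change of -0.06 from mock, and at 3 h 19.6 ± 2.12 FPKM, so that 5 h and 3 h differed by -0.22 ± 0.30. In GFP+ cells it was lower by value, with 1.57, 2.15 and 1.46 FPKM at 5 h, against 2.50, 7.50 and 4.39 FPKM in mock. Hsp70 genes are near-identical in places, and how the authors' counting shared reads among them is not given in the sources used here.

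The heat shock list as a whole held 28 tested genes, of which 5 rose, 0 fell and 23 did not pass. The share called was 17.9%, against 1.33% over all genes. All gene lists here were chosen with earlier results of these data known, so such shares are no independent test of a list. Its median change was 0.33, against -0.03 over all tested genes, and 15 of the 28 had 5 h libraries wholly above mock, against 7.86% of all tested genes. HSP90AA1 (ENSDARG00000024746), a cytosolic Hsp90, had 81.1, 81.5 and 72.2 FPKM at 5 h, against 38.6, 36.5 and 28.9 FPKM in mock (1.16 ± 0.23, adjusted p = 0.0166). Its relative hsp90aa1.1 (ENSDARG00000010478), known in zebrafish for folding muscle myosin, had 18.4, 15.3 and 9.56 FPKM at 5 h, against 5.96, 6.24 and 6.97 FPKM in mock (1.02 ± 0.21, adjusted p = 0.0226). In both, the groups did not overlap.

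HSPA4 (ENSDARG00000004754) encodes an Hsp110-type protein that helps Hsp70 exchange its nucleotide. It had 45.7, 42.1 and 43.5 FPKM at 5 h, against 26.0, 22.3 and 22.6 FPKM in mock (0.86 ± 0.14, adjusted p = 0.00504). FKBP4 (ENSDARG00000008447), an Hsp90 partner of steroid receptors, had 63.2, 55.6 and 57.8 FPKM at 5 h, against 44.1, 41.4 and 42.9 FPKM in mock (0.45 ± 0.11, adjusted p = 0.046). Both were lower at 1 h than in mock by value (-0.44 and -0.39, not called) and higher at 3 h and 5 h. The stress-inducible hsp70l (ENSDARG00000055723) did not pass (0.67 ± 0.35, adjusted p = 0.403): it had 1.95, 2.56 and 2.75 FPKM at 5 h, against 1.99, 1.11 and 0.566 FPKM in mock.

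Of these 5 chaperones, hsc70 and HSPA4 were called with any 1 library left out. The list's count fell to 2 without 5 h replicate 2 or mock replicate 2, and to 3 without 5 h replicate 1, mock replicate 1 or mock replicate 3. FKBP4 lost its call with each of the 6 libraries in turn (highest adjusted p = 0.146). hsp90aa1.1 lost it without 5 h replicates 1 and 2 and mock replicates 1 and 2 (highest adjusted p = 0.115), and HSP90AA1 without 5 h replicate 2 and mock replicates 2 and 3 (highest adjusted p = 0.0787). Between 1 h and mock, 1 of the 28 tested genes of the list was called higher and 2 lower. Over all tested genes the shares were 2.1% and 0.981%. None of the 5 chaperones was called at 1 h. Against 3 h, the 5 chaperones differed by -0.30 to 0.25.

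Of 37 tested genes of the unfolded protein and integrated stress list, 2 rose, 0 fell and 35 did not pass, 5.41% against 1.33% over all genes (median 0.14). HSPD1 (ENSDARG00000056160), the mitochondrial chaperonin Hsp60, had 77.3, 70.7 and 70.6 FPKM at 5 h, against 44.4, 38.6 and 44.7 FPKM in mock (0.76 ± 0.16, adjusted p = 0.0237). XBP1 (ENSDARG00000035622), a transcription factor of the endoplasmic reticulum stress response, had 114, 128 and 113 FPKM at 5 h, against 97.5, 87.2 and 84.9 FPKM in mock (0.39 ± 0.07, adjusted p = 0.0118). The groups were apart in both genes. Without 5 h replicate 2 or mock replicate 2 neither was called (adjusted p = 0.0811 and 0.101 for HSPD1, 0.0872 and 0.0571 for XBP1), HSPD1 also lost its call without 5 h replicates 1 and 3 (adjusted p = 0.0639 and 0.0554), and XBP1 without mock replicate 3 (adjusted p = 0.0509). At 1 h the changes from mock were 0.21 and 0.15, and between 5 h and 3 h they were -0.29 and -0.08.

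HSPA9 (ENSDARG00000003035), the mitochondrial Hsp70, is in none of the lists and was chosen after its values were seen. It had 68.9, 70.6 and 75.9 FPKM at 5 h, against 46.3, 42.9 and 44.2 FPKM in mock (0.68 ± 0.11, adjusted p = 0.00265). The groups were apart, and it was called with any 1 library left out (0.64 to 0.71). At 1 h it differed from mock by 0.11, and 5 h from 3 h by -0.24.

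**Figure D2:**
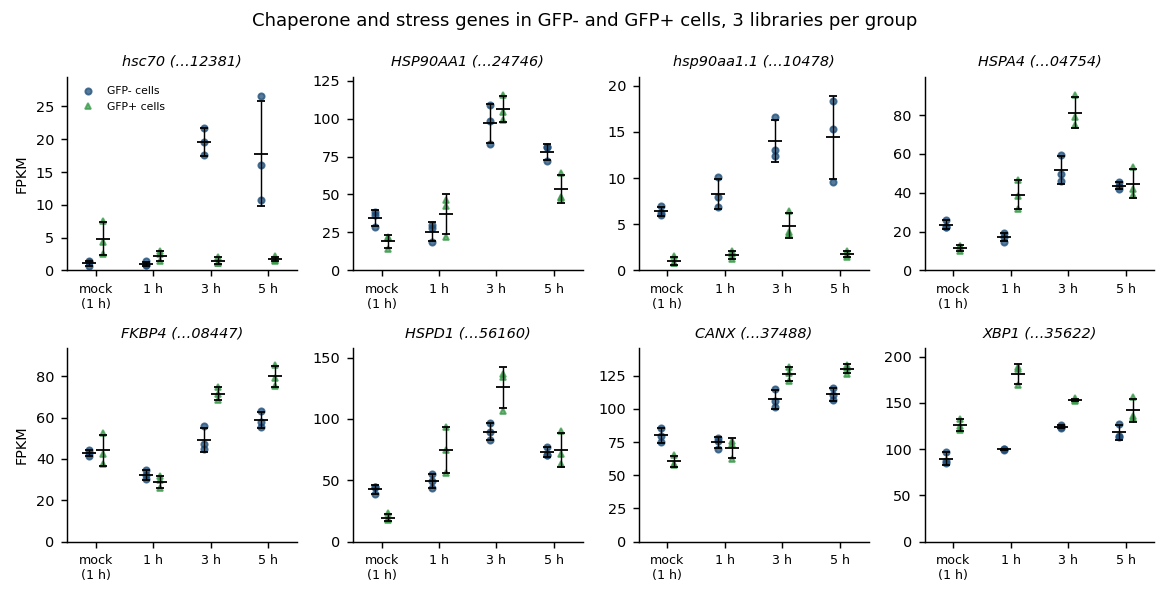
FPKM of 8 chaperone and stress genes by time, 1 point per library (circles GFP-, triangles GFP+), with the mean and SD of 3 libraries, each panel from 0; the number in brackets ends the Ensembl ID. In GFP- cells the 3 h and 5 h points of hsc70, HSP90AA1, hsp90aa1.1 and HSPA4 lie above mock, while hsc70 in GFP+ cells is lower at 5 h than in mock.

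Heme synthesis was the list with the highest share of calls, among lists chosen with earlier results of these data known. Of 32 tested genes for heme synthesis, iron uptake and red cell transcription factors, 13 rose, 0 fell and 19 did not pass, 40.6% against 1.33% over all genes. The median change was 0.42, against -0.03 over all tested genes. Of the 32, 22 had 5 h libraries wholly above mock, against 7.86% of all tested genes. By value GFP+ cells had the same direction, with a list median of 0.35 at 5 h, against 0.12 over all tested genes. No gene of the list differed between the populations by the interaction test. In bulk samples a larger share of red cells and more RNA per red cell cannot be told apart. The genes are given in the order of the pathway.

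The enzyme alas2 (ENSDARG00000038643) makes the first committed intermediate in red cells. It had 185, 301 and 188 FPKM at 5 h, against 102, 112 and 104 FPKM in mock (1.04 ± 0.25, adjusted p = 0.0449). Its housekeeping counterpart ALAS1 (ENSDARG00000021059), which serves other tissues, had 35.8, 39.1 and 41.7 FPKM at 5 h, against 39.5, 31.2 and 40.8 FPKM in mock (0.07 ± 0.13, adjusted p = 0.875). The groups were apart for alas2 and overlapped for ALAS1.

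The enzyme uros (ENSDARG00000027491), which closes the ring of the heme precursor, did not pass (0.33 ± 0.16, adjusted p = 0.336), with 29.6, 35.5 and 26.0 FPKM at 5 h, against 24.4, 24.2 and 22.6 FPKM in mock. Its groups were apart, by a small margin.

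UROD (ENSDARG00000006818) removes the carboxyl groups of the ring's acetate side chains. It had 73.2, 98.7 and 62.6 FPKM at 5 h, against 30.7, 34.7 and 30.7 FPKM in mock (1.24 ± 0.22, adjusted p = 0.00717). CPOX (ENSDARG00000062025), the following enzyme, had 50.8, 61.3 and 39.9 FPKM at 5 h, against 14.5, 15.2 and 14.6 FPKM in mock, 3.43-fold higher in the means (1.69 ± 0.20, adjusted p = 0.000345). FECH (ENSDARG00000003462), which inserts the iron, had 12.4, 17.2 and 15.6 FPKM at 5 h, against 7.76, 6.98 and 6.23 FPKM in mock (1.00 ± 0.22, adjusted p = 0.027). For all of these the groups did not overlap, and the mock libraries lay close together.

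Iron and intermediates reach the enzymes through transporters. ABCB10 (ENSDARG00000061591), a transporter of the inner mitochondrial membrane in red cell precursors, had 15.6, 17.99 and 11.3 FPKM at 5 h, against 6.86, 6.39 and 5.83 FPKM in mock (1.099 ± 0.16, adjusted p = 0.00155). slc11a2 (ENSDARG00000024295), the divalent metal transporter that brings iron out of endosomes, had 77.1, 78.7 and 63.4 FPKM at 5 h, against 46.6, 44.6 and 44.3 FPKM in mock (0.68 ± 0.11, adjusted p = 0.00486). The transferrin receptor tfr1b (ENSDARG00000077372) rose at a low level, to 2.91, 3.35 and 3.73 FPKM at 5 h, against 1.46, 1.497 and 1.57 FPKM in mock (0.78 ± 0.14, adjusted p = 0.00717). STEAP3 (ENSDARG00000075641), the endosomal reductase that prepares iron for transport, had 7.10, 7.41 and 8.21 FPKM at 5 h, against 3.40, 4.73 and 3.43 FPKM in mock (0.83 ± 0.19, adjusted p = 0.0391). The mitochondrial iron importer SLC25A37 (ENSDARG00000073743) did not pass (0.62 ± 0.22, adjusted p = 0.17).

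Among the transcription factors, gata1a (ENSDARG00000013477), the main activator of red cell genes, had 29.2, 36.0 and 28.4 FPKM at 5 h, against 14.98, 20.1 and 15.4 FPKM in mock (0.86 ± 0.20, adjusted p = 0.0391). klf1 (ENSDARG00000017400), which acts with it on globin genes, had 14.8, 16.8 and 14.4 FPKM at 5 h, against 8.62, 11.2 and 9.92 FPKM in mock (0.58 ± 0.14, adjusted p = 0.0462). A related Kruppel-like factor, klf17 (ENSDARG00000038792), rose as well (1.04 ± 0.19, adjusted p = 0.00786), but it was more abundant in GFP+ cells, at 98.5, 84.7 and 88.2 FPKM at 5 h and 74.4, 87.0 and 69.8 FPKM in mock. TAL1 (ENSDARG00000019930), MYB (ENSDARG00000053666) and LMO2 (ENSDARG00000095019), factors of early blood cells, did not pass (0.47, 0.31 and -0.08; adjusted p = 0.11, 0.53 and 0.874).

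All 13 called heme genes lay above mock in every 5 h library. So did all 123 genes called higher, so this separation adds nothing to the calls. Many of the heme calls rested on single libraries. CPOX, ABCB10, slc11a2 and tfr1b were called with any 1 of the 6 libraries left out. The list's count was 6 without 5 h replicate 2, which was the highest library for 10 of the 13, and 8 without 5 h replicate 3, mock replicate 2 or mock replicate 3. UROD and klf17 lost their calls without 5 h replicate 2 (adjusted p = 0.0591 and 0.0502). alas2 lost it without every library but 5 h replicate 1, FECH without 5 h replicates 2 and 3 and mock replicates 2 and 3, and gata1a, klf1 and STEAP3 without each of the 6 (highest adjusted p = 0.215 for alas2, 0.138 for FECH, 0.18 for gata1a, 0.198 for klf1 and 0.129 for STEAP3). With the spread of the 6 libraries alone 1 of the 13, CPOX, was called.

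Within dates, 1 of the 32 tested genes of the list was called, at 1 h, where 3.08% of all tested genes were called. Between 1 h and mock its median change was 0.18 and none of the 13 genes was called; another member, SLC25A38 (ENSDARG00000074533), a mitochondrial carrier needed for heme synthesis, was (0.56, adjusted p = 0.0245). Between 5 h and 3 h the median was -0.07 and no gene was called. CPOX, as an example, averaged 14.8 ± 0.38 FPKM in mock, 16.9 ± 5.35 at 1 h, 43.3 ± 4.38 at 3 h and 50.7 ± 10.7 at 5 h (SD, n = 3 each).

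**Figure D3:**
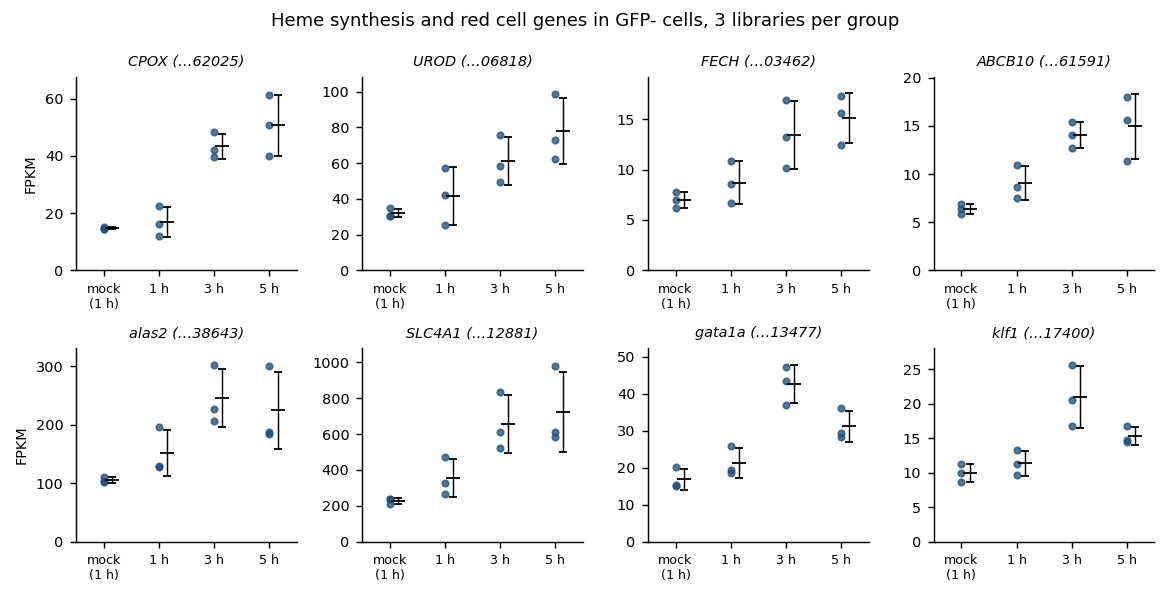
FPKM of 8 heme synthesis and red cell genes in GFP- cells by time, 1 point per library with the mean and SD of 3 libraries beside it, each panel from 0; the number in brackets ends the Ensembl ID. The 5 h points lie above mock in all 8 panels, and they overlap with the 3 h points except in gata1a, where 3 h is higher.

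Globins and membrane proteins of red cells had 3 calls among 29 tested genes, all higher, where 0.635% of all tested genes were called higher; the median was 0.49. SLC4A1 (ENSDARG00000012881), the band 3 anion exchanger of the red cell membrane, had 581, 980 and 611 FPKM at 5 h, against 208, 239 and 236 FPKM in mock (1.62 ± 0.28, adjusted p = 0.00686). The red cell carbonic anhydrase cahz (ENSDARG00000011166) had 578, 797 and 561 FPKM at 5 h, against 350, 392 and 306 FPKM in mock (0.87 ± 0.18, adjusted p = 0.0223). SPTB (ENSDARG00000030490), the beta spectrin of the membrane skeleton, had 44.4, 70.4 and 50.9 FPKM at 5 h, against 29.4, 33.8 and 27.0 FPKM in mock (0.84 ± 0.20, adjusted p = 0.046). In all 3 genes the 5 h libraries lay above mock, with 5 h replicate 2 the highest. Without that library none of them was called (adjusted p = 0.0557, 0.134 and 0.215); 1 was called without mock replicate 1 or mock replicate 3, and 2 without 5 h replicate 3. At 1 h they differed from mock by 0.60, -0.01 and 0.21, and 5 h from 3 h by 0.13, -0.02 and -0.25.

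The globins themselves did not pass. hbae3 (ENSDARG00000079305), the most abundant alpha globin here, had 22470, 29690 and 18630 FPKM at 5 h, against 15880, 16920 and 14510 FPKM in mock (0.56 ± 0.36, adjusted p = 0.515). hbae5 (ENSDARG00000045142), a minor one, had 122, 177 and 89.7 FPKM at 5 h, against 36.4, 59.18 and 32.4 FPKM in mock (1.57 ± 0.43, adjusted p = 0.0732). Of the other alpha globins, hbae1.1 (ENSDARG00000089475), hbae1.2 (ENSDARG00000088330), hbae1.3 (ENSDARG00000089124) and hbae4 (ENSDARG00000045144) changed by 1.22, 0.72, 1.13 and 0.63, none called (adjusted p = 0.141 to 0.494). The beta globin symbol HBE1 stood for 4 IDs, and the abundant ENSDARG00000045143 and ENSDARG00000087390 changed by 0.72 and 0.58 (adjusted p = 0.306 and 0.658). Zebrafish globin genes are near copies in clusters, so the split of reads among them is uncertain.

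Summed over all globin genes, which is less open to that split, globins held 2.49%, 3.46% and 2.25% of the FPKM of the 5 h libraries, against 1.71%, 1.76% and 1.73% in mock. The groups did not overlap. The share was 2.59%, 2.29% and 3.48% at 3 h and 2.59%, 1.72% and 1.52% at 1 h, so that 1 h replicate 1 reached the level of 3 h and 5 h on the date of mock. In GFP+ cells globins held 0.0799%, 0.0647% and 0.0319% at 5 h, against 0.0166%, 0.0307% and 0.0153% in mock. The red cell marker sum (10 IDs of globins, SLC4A1, alas2 and gata1a) was 28900 to 44800 FPKM at 5 h, against 21400 to 25800 FPKM in mock, in GFP- cells. Its part in the other results was not tested.

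Among the remaining large rises, tubb1 (ENSDARG00000053066), a beta tubulin, had 44.1, 65.0 and 43.5 FPKM at 5 h, against 20.4, 26.1 and 21.0 FPKM in mock (1.12 ± 0.22, adjusted p = 0.0149), and was not called without 5 h replicate 2 or mock replicates 1 or 3 (highest adjusted p = 0.106). SLC10A4 (ENSDARG00000009131), a member of the SLC10 transporter family, had 13.5, 15.3 and 11.7 FPKM at 5 h, against 2.59, 4.58 and 4.52 FPKM in mock (1.59 ± 0.20, adjusted p = 0.000366). Both had 5 h libraries wholly above mock, as the rule for the largest rises required, and SLC10A4 was called with any 1 library left out. Their changes at 1 h were 0.32 and 0.61, and between 5 h and 3 h -0.32 and -0.18.

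In cholesterol synthesis 2 of 24 tested genes rose and none fell (8.33% against 1.33% over all genes, median 0.21). At 1 h, on the date of mock, 4 of the 24 tested genes were called higher, against 2.1% of all tested genes. None was called lower, and none of the 4 was among those called at 5 h. IDI1 (ENSDARG00000019976), an isomerase of the pathway, had 17.9, 20.8 and 18.7 FPKM at 5 h, against 12.5, 13.6 and 16.6 FPKM in mock (0.41 ± 0.10, adjusted p = 0.039). The groups were apart, with 5 h replicate 2 the highest. IDI1 was not called without 5 h replicates 2 or 3 or mock replicates 1 or 2 (highest adjusted p = 0.188), and the list then had 0 calls; it had 1 without mock replicate 3. The differences of IDI1 were 0.09 between 1 h and mock and 0.01 between 5 h and 3 h.

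Retinal genes were higher by value, with 1 call. The photoreceptor and retina list had a median of 0.51 over 55 tested genes, and 19 had 5 h libraries wholly above mock, against 7.86% of all tested genes. The share called, 1 gene or 1.82%, was near the 1.33% of all genes. Between 1 h and mock the list's median was 0.45, with 3 of the 55 genes called higher, against 2.1% of all tested genes. The call was rom1a (ENSDARG00000019752), a disc membrane protein of photoreceptors, with 15.2, 28.1 and 21.7 FPKM at 5 h, against 10.6, 11.9 and 10.8 FPKM in mock (0.87 ± 0.16, adjusted p = 0.0111). Outside the list, KCNV2 (ENSDARG00000062906), a potassium channel subunit of photoreceptors, had 4.22, 10.5 and 7.75 FPKM at 5 h, against 2.97, 3.10 and 2.105 FPKM in mock (1.12 ± 0.23, adjusted p = 0.0205). Without 5 h replicate 2 neither was called (adjusted p = 0.0734 and 0.127) and the list's median was 0.28; without 5 h replicate 1 the list had 6 calls. KCNV2 was also lost without 5 h replicate 3 and mock replicates 2 and 3. The summed photoreceptor markers (3 IDs) stood at 970 to 2210 FPKM at 5 h and 649 to 916 FPKM in mock. At 1 h, on the date of mock, the sum was 1170 to 1190 FPKM. Its difference at 5 h lay in GNAT2, with 791, 1990 and 1160 FPKM at 5 h, against 628, 709 and 434 FPKM in mock. CRX (68.6 to 83.0 against 69.7 to 85.4 FPKM) and crx (111 to 140 against 114 to 130 FPKM) overlapped. The median change of the 3 IDs was 0.002. The part of these markers in the retinal result was not tested.

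Clock genes were the list with the most falls. Of 48 tested genes of the clock and its outputs, 5 fell, 0 rose and 43 did not pass. The share that fell was 10.4%, against 0.697% of all tested genes. Of the 48, 11 had 5 h libraries wholly below mock, a higher share than the 12% of all tested genes. The list's median was -0.02, and it was 0.01 under median-of-ratios scaling and 0.03 without 5 h replicate 1. dbpb (ENSDARG00000057652), a transcription factor that carries clock output to other genes, had 16.3, 13.8 and 14.6 FPKM at 5 h, against 26.2, 46.5 and 67.8 FPKM in mock (-1.49 ± 0.29, adjusted p = 0.0149). One of the PER1 genes (ENSDARG00000056885), a core repressor of the clock, had 6.03, 6.22 and 6.86 FPKM at 5 h, against 14.3, 17.98 and 21.9 FPKM in mock (-1.35 ± 0.16, adjusted p = 0.000366). The 5 h libraries were tight and below every mock library, while dbpb was widely spread in mock.

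The other falls were in repressors of the clock. cipca (ENSDARG00000075397), which binds CLOCK, had 6.74, 6.61 and 7.49 FPKM at 5 h, against 14.9, 14.7 and 16.6 FPKM in mock (-1.04 ± 0.14, adjusted p = 0.000643). NR1D1 (ENSDARG00000033160), the nuclear receptor Rev-erb alpha, had 35.8, 37.8 and 30.8 FPKM at 5 h, against 63.0, 57.0 and 61.8 FPKM in mock (-0.79 ± 0.18, adjusted p = 0.0333). ciarta (ENSDARG00000058094), a repressor of BMAL1 and CLOCK, had 28.5, 25.1 and 27.6 FPKM at 5 h, against 45.2, 48.8 and 38.9 FPKM in mock (-0.69 ± 0.16, adjusted p = 0.0349). In each the groups were apart. Just short of the threshold were BHLHE41 (ENSDARG00000041691), with a change of -1.38 ± 0.35 (adjusted p = 0.0581), and the second PER1 gene (ENSDARG00000012499), with -0.81 ± 0.21 (adjusted p = 0.0609).

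PER1 and cipca were called with any 1 library left out and with the spread of the 6 libraries alone. The list's count was 3 without 5 h replicate 1 or 3, and 2 without 5 h replicate 2 or mock replicate 2. NR1D1 lost its call without each of the 6 libraries in turn (highest adjusted p = 0.12), ciarta without all but mock replicate 3 (highest adjusted p = 0.152) and under median-of-ratios scaling, and dbpb without 5 h replicate 2 or mock replicates 2 or 3 (highest adjusted p = 0.0745). Between 5 h and 3 h the 5 genes differed by -0.65 to -0.28, none called. By value GFP+ cells had the same direction, with changes of -1.46 for dbpb, -0.95 for PER1, -0.91 for cipca, -1.14 for NR1D1 and -0.99 for ciarta, and none of the 5 differed between the populations by the interaction test (adjusted p = 0.37 to 0.98). The hour of the day at which cells were collected is not given in the sources used here.

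At 1 h, on the date and sampling time of mock, 10 of the 48 tested clock genes were called higher and none lower. Over all tested genes 2.1% were called higher at 1 h. PER2 (ENSDARG00000034503), a light-induced period gene in zebrafish, had 3.35, 2.202 and 2.16 FPKM in mock, 43.4, 51.7 and 37.8 FPKM at 1 h, 16.7, 7.18 and 30.5 FPKM at 3 h, and 3.38, 12.7 and 8.95 FPKM at 5 h. The change was 3.67 ± 0.68 at 1 h (adjusted p = 0.00553) and 1.25 ± 0.68 at 5 h (adjusted p = 0.42). PER1 was called in both comparisons and in opposite directions, 0.68 ± 0.16 at 1 h (adjusted p = 0.0296) and -1.35 at 5 h. tefa (ENSDARG00000039117), a relative of dbpb, and the photolyase relative cry5 (ENSDARG00000019498) were called at 1 h (1.25 and 2.09; adjusted p = 0.0255 and 0.0202) and not at 5 h (-0.28 and 0.25; adjusted p = 0.736 and 0.873).

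**Figure D4:**
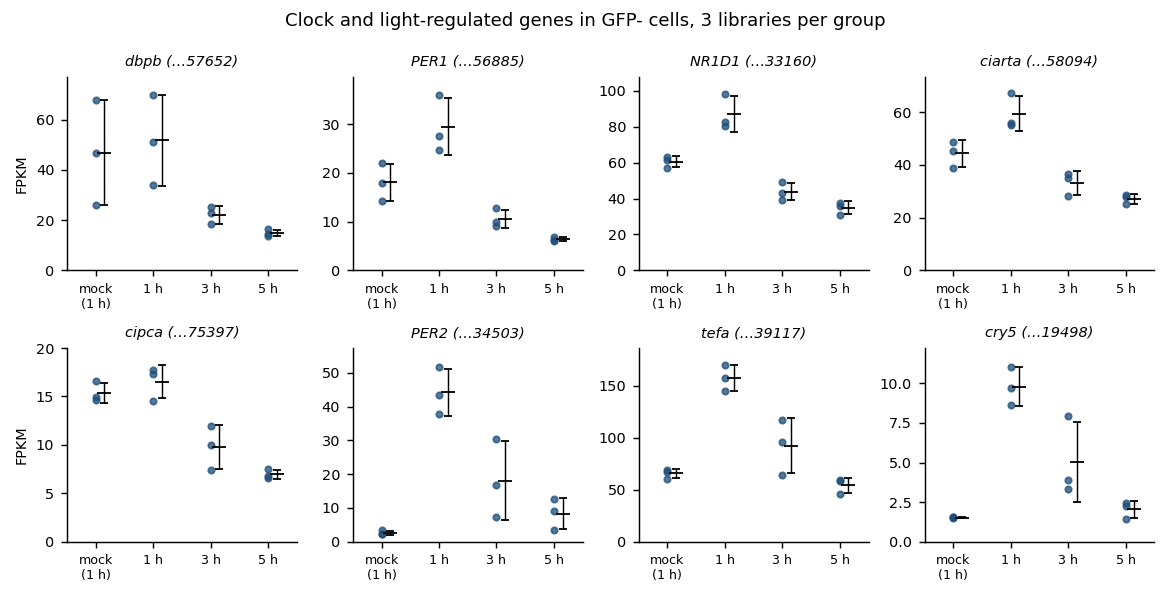
FPKM of 8 clock and light-regulated genes in GFP- cells by time, 1 point per library with the mean and SD of 3 libraries beside it, each panel from 0; the number in brackets ends the Ensembl ID. dbpb, PER1, NR1D1, ciarta and cipca end below mock at 5 h, and PER2, tefa and cry5 peak at 1 h, where PER2 averages 44.3 FPKM.

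Hair cells are the cells that neomycin kills. Their summed markers, named below, stood at 70.4 to 110 FPKM in GFP- mock cells, against 2260 to 3140 FPKM in GFP+ mock cells. Of 44 tested lateral line and hair cell genes, 2 fell (4.55%), against 0.697% of all tested genes, and none rose. The median was -0.15, against -0.03 over all tested genes. Of the 44, 9 had 5 h libraries wholly below mock, against 2320 of all 19361 tested genes. s100t (ENSDARG00000055589), an S100 calcium-binding protein of hair cells, had 9.35, 5.73 and 6.98 FPKM at 5 h, against 45.4, 21.1 and 13.5 FPKM in mock (-1.58 ± 0.33, adjusted p = 0.0229). pvalb8 (ENSDARG00000037790), a parvalbumin of hair cells, had 78.9, 70.0 and 56.2 FPKM at 5 h, against 250, 180 and 94.2 FPKM in mock (-1.24 ± 0.29, adjusted p = 0.0391). The mock libraries spread widely and stood above all 5 h libraries in both genes, as in nearly all genes called lower. In GFP+ cells s100t averaged 1394 FPKM and pvalb8 1360 FPKM in mock, many times the GFP- levels.

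By value both hair cell genes were lower at 1 h, on the date of mock (-0.98 ± 0.33 for s100t and -0.89 ± 0.29 for pvalb8; adjusted p = 0.117 and 0.106). Between 5 h and 3 h they differed by -0.54 ± 0.33 and 0.14 ± 0.29, neither called. The hair cell markers s100t, pvalb9, OTOF and LHFPL5 (5 IDs) summed to 49.0 to 61.3 FPKM at 5 h, against 70.4 to 110 FPKM in mock. That sum includes s100t, the 1 called ID among them, so it is not separate from the call. The marker pvalb9 (ENSDARG00000071601) had 44.5, 44.2 and 35.5 FPKM at 5 h, against 48.9, 55.5 and 47.8 FPKM in mock, and was not called. OTOF (ENSDARG00000020581), the otoferlin of the hair cell synapse, had 2.39, 7.12 and 2.93 FPKM at 5 h, against 10.7, 5.97 and 4.63 FPKM in mock (-0.70 ± 0.41, adjusted p = 0.458), so the groups overlapped. The other OTOF ID (ENSDARG00000030832) had 2.6, 3.11 and 2.42 FPKM at 5 h, against 4.33, 4.26 and 3.41 FPKM in mock. Its groups were apart, and it was not called. LHFPL5 (ENSDARG00000045023), a part of the mechanotransduction channel, stood near 1 FPKM in both groups (0.10 ± 0.17, adjusted p = 0.846). s100t was not called without 5 h replicates 2 or 3 or mock replicates 1 or 2 (highest adjusted p = 0.122), and pvalb8 not without any library except mock replicate 3 (highest adjusted p = 0.144). Neither was called with the spread of the 12 GFP- libraries or of the 6 libraries alone. With a pseudocount of 0.1, no filter on low values or median-of-ratios scaling, pvalb8 was not called either.

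anxa5a (ENSDARG00000026406), an annexin that binds membranes in the presence of calcium, fell at 1 h and 5 h. It had 0.921, 1.21 and 0.591 FPKM at 5 h, against 7.67, 6.67 and 4.05 FPKM in mock, a 6.77-fold difference of means (-1.88 ± 0.24, adjusted p = 0.000366). At 1 h it was already at 1.25, 2.02 and 2.58 FPKM (-1.26 ± 0.24, adjusted p = 0.00609). All of its treated libraries lay below all mock libraries, which for 5 h the rule for the largest falls required. It was called at 5 h with any 1 library left out. In GFP+ cells it had 40.8, 42.9 and 31.8 FPKM at 5 h, against 90.4, 57.5 and 84.5 FPKM in mock.

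Chemokines made up 3 of the 12 largest falls. ccl38a.4 (ENSDARG00000041917) had 1.24, 3.93 and 2.26 FPKM at 5 h, against 17.4, 17.8 and 11.54 FPKM in mock (-2.31 ± 0.36, adjusted p = 0.00265). ccl34b.4 (ENSDARG00000094002) had 17.6, 9.10 and 13.7 FPKM at 5 h, against 32.2, 35.3 and 25.7 FPKM in mock (-1.18 ± 0.22, adjusted p = 0.0107). cxcl11.5 (ENSDARG00000092423) was listed at 0 in all 3 libraries at 5 h, against 10.08, 5.35 and 2.01 FPKM in mock (adjusted p = 0.018), and was at 6.12, 0 and 0 FPKM at 1 h. Groups did not overlap for any of them, which the rule for naming the largest falls required. Between 1 h and mock ccl38a.4 and ccl34b.4 differed by -0.46 and -0.42, and between 5 h and 3 h by -0.74 and -0.23, none called. ccl38a.4 was called with any 1 library left out, ccl34b.4 not without 5 h replicate 2 or mock replicate 2 (adjusted p = 0.0759 and 0.0571), and cxcl11.5 not without 5 h replicates 2 or 3 or mock replicates 1 or 2 (highest adjusted p = 0.0776). These belong to families of many near copies, so reads may have been split between them. Marker genes of leukocytes, which are among the cells that make chemokines, were not called. The neutrophil list (37 tested) and the macrophage and microglia list (36 tested) had 0 calls. With 1.33% of all tested genes called, 0 calls in lists of this size cannot show that leukocytes were unchanged. Their medians were -0.20 and -0.21, against -0.03 over all tested genes. By value 31 of the 37 and 27 of the 36 genes were lower, against 10909 of all 19361 tested genes. The part of the leukocyte share in the chemokine falls was not tested.

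The other large falls had no common list. cox5aa (ENSDARG00000088383), a subunit of cytochrome c oxidase, had 2.84, 3.33 and 2.69 FPKM at 5 h, against 14.8, 10.6 and 7.33 FPKM in mock (-1.54 ± 0.31, adjusted p = 0.0184). rps11l (ENSDARG00000093606), a ribosomal protein S11-like gene, had 25.7, 16.2 and 10.03 FPKM at 5 h, against 44.8, 43.7 and 40.3 FPKM in mock (-1.35 ± 0.31, adjusted p = 0.0352). Both may share reads with close copies. At 3 h they had averaged 3.00 and 11.52 FPKM, and at 1 h 16.0 and 31.2 FPKM. Neither was called without 5 h replicates 2 or 3 or mock replicates 1 or 2, nor rps11l without mock replicate 3 (highest adjusted p = 0.0783 and 0.146).

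CASKIN2 (ENSDARG00000043818), a scaffold protein that belongs to the CASK-interacting family, had 2.39, 3.75 and 2.89 FPKM at 5 h, against 8.74, 8.05 and 6.93 FPKM in mock (-1.16 ± 0.19, adjusted p = 0.00397). ANO3 (ENSDARG00000058015), an anoctamin membrane protein, had 2.84, 3.69 and 3.68 FPKM at 5 h, against 6.59, 8.53 and 10.23 FPKM in mock (-1.09 ± 0.19, adjusted p = 0.00582). Both were called with any 1 library left out, and their differences between 1 h and mock were 0.05 and 0.07.

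**Figure D5:**
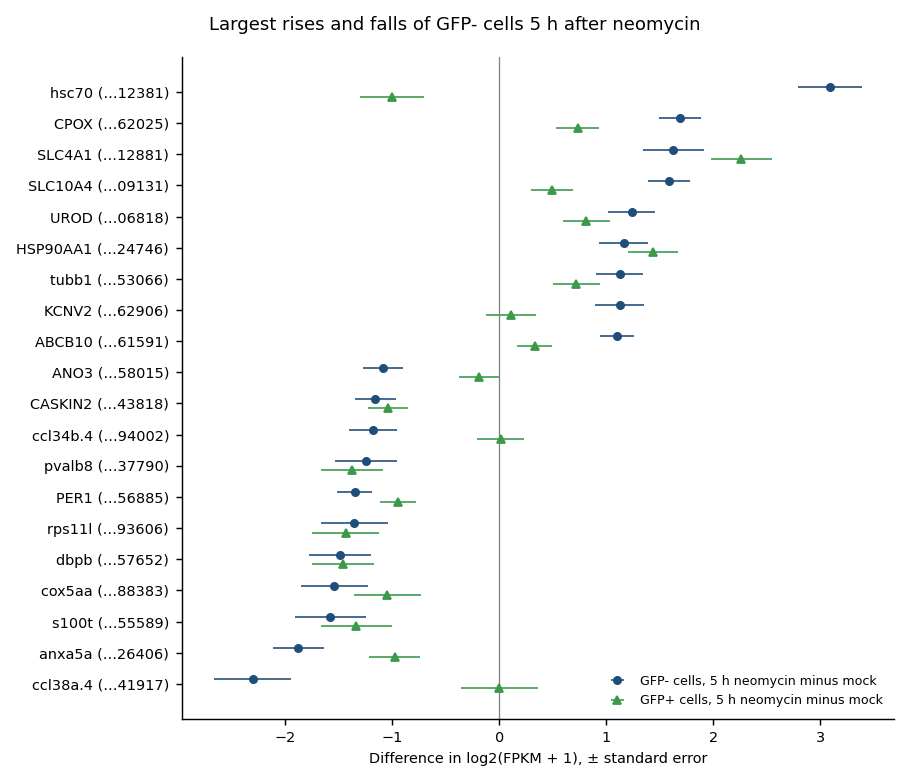
Change 5 h after neomycin against mock, as a difference in log2(FPKM + 1) with its standard error, for 9 of the 12 genes with the largest rises and 11 of the 12 with the largest falls in GFP- cells (circles), with the change of the same genes in GFP+ cells (triangles); cxcl11.5, listed at 0 at 5 h, is left out. The GFP- values, by which the genes were chosen, run from -2.31 to 3.09, and hsc70 lies on opposite sides of 0 in the 2 populations.

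To ask where the GFP- response differed from that of GFP+ cells, the difference of the changes at 5 h was tested. Over all genes its median was 0.17 (GFP+ change minus GFP- change), and 616 genes passed (570 more positive in GFP+ cells, 2.94%, and 46 more negative, 0.238%; 3.18% in all). Under median-of-ratios scaling the median was near 0 and 117 genes passed. Of the 123 genes that rose in GFP- cells, 15 had a more positive and 12 a more negative change in GFP+ cells by this test, and of the 135 that fell, 17 had a more positive change in GFP+ cells and 0 a more negative one. These counts are partly fixed by how the genes were chosen, from GFP- values: 8 of the 12 and 12 of the 17 averaged under 1 FPKM in GFP+ cells both at 5 h and in mock, and for such genes the difference is close to the GFP- change with its sign turned round. None of the 15 did. By value, the GFP+ change had the same sign for 113 of the 123 and 116 of the 135. The share of all tested genes with the same sign was not taken, and their median GFP+ change was 0.12. The GFP+ libraries of 5 h and mock differ in date and sampling time as the GFP- libraries do. The part of date and sampling time in the shared signs was not tested. The count of 616 was 236 without GFP- mock replicate 3, 249, 383 and 408 without GFP- 5 h replicates 2, 1 and 3, and 354 and 408 without GFP+ 5 h replicates 2 and 3.

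The smallest p in this test was that of hsc70, with a difference of -4.10 ± 0.42 (adjusted p = 0.000157). Others rose in GFP- cells and had a larger change in GFP+ cells. NOMO2 (ENSDARG00000078592), an endoplasmic reticulum membrane protein, had 23.1, 27.4 and 27.8 FPKM at 5 h, against 18.7, 19.3 and 20.4 FPKM in mock in GFP- cells (0.40 ± 0.09, adjusted p = 0.0263), and its GFP+ change was 1.38. NUP155 (ENSDARG00000001777), a nuclear pore protein, changed by 0.40 ± 0.09 in GFP- cells (adjusted p = 0.0273) and 1.14 in GFP+ cells. CANX (ENSDARG00000037488), the endoplasmic reticulum chaperone calnexin, had 107, 110 and 116 FPKM at 5 h, against 85.8, 74.7 and 79.8 FPKM in mock in GFP- cells (0.47 ± 0.08, adjusted p = 0.00718), and its GFP+ change was 1.097. Libraries of 5 h lay above mock for these 3 genes, whose GFP- differences ran from -0.11 to -0.10 between 1 h and mock and from -0.20 to 0.05 between 5 h and 3 h. NOMO2 and NUP155 lost their GFP- call without 5 h replicates 2 or 3 or mock replicates 1 or 2 (highest adjusted p = 0.134 and 0.133), and CANX without mock replicate 2 (adjusted p = 0.0521).

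LYPLA2 (ENSDARG00000053656), an enzyme that removes fatty acids from proteins, changed by 0.43 ± 0.08 in GFP- cells (adjusted p = 0.00717) and 1.00 in GFP+ cells, with GFP- differences of -0.03 between 1 h and mock and 0.11 between 5 h and 3 h. CYP27A1 (ENSDARG00000088013), a sterol hydroxylase, fell in GFP- cells, to 0.819, 0.746 and 0.699 FPKM at 5 h, against 4.36, 3.36 and 2.86 FPKM in mock (-1.35 ± 0.16, adjusted p = 0.000335). Its change in GFP+ cells was -0.15, and the difference of 1.203 ± 0.22 passed the test (adjusted p = 0.00749). CYP27A1 was called in GFP- cells with any 1 library left out, and was at 3.39 ± 0.801 FPKM at 1 h and 1.62 ± 0.094 FPKM at 3 h (SD, n = 3).

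Gene lists outside these groups gave few or no calls 5 h after neomycin. Over all tested genes 1.33% were called, so lists of these sizes may hold 0 or 1 call by that share alone. Such counts cannot show that these genes were unaffected. OAT (ENSDARG00000078425), an ornithine aminotransferase, was the call among 29 tested polyamine and amino acid genes, at 17.0, 26.2 and 22.2 FPKM at 5 h, against 11.3, 11.4 and 11.2 FPKM in mock (0.87 ± 0.19, adjusted p = 0.0287). It is 1 of the 8 genes called higher at both 1 h (0.98, adjusted p = 0.00792) and 5 h, and was not called at 5 h without any library except 5 h replicate 1 (highest adjusted p = 0.16). Between 5 h and 3 h it differed by -0.31. The glucocorticoid and fasting list had 1 call among 37, the PER1 gene above. Lists for S phase and mitosis (61 tested), ribosome biogenesis (49), immediate early and AP-1 genes (47), NF-kB and inflammation (38), p53 and cell cycle inhibitors (35), oxidative stress (29), the interferon response (15), epidermis (51), neuron (49), skeletal muscle (47), liver (47), exocrine pancreas (25), intestine (26) and pigment cells (25) had 0 calls, with medians from -0.37 for exocrine pancreas to 0.19 for liver. Of 87 skeletal muscle genes 40 did not reach the filter, and epidermis markers were far lower in GFP- than in GFP+ cells. Of 4 pancreas markers only prss1 (ENSDARG00000042993) was matched. It had 245, 347 and 132 FPKM at 5 h, against 181, 282 and 587 FPKM in mock.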

How the data were processed

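The authors deposited 1 table of FPKM with a column per library and a row per Ensembl gene. Per the submitters' processing notes it was made with CASAVA 1.8.2, TopHat 1.4.1, Cufflinks 1.3 and build danRer7, and per the labels' protocols from polyadenylated RNA. Which annotation and strand setting they used is not given in the sources used here. The first row of each of 31087 IDs was kept (112 repeats dropped); 20499 had a symbol in a table of gene names, capitals marking a mammalian ortholog. No sequence is shown.

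Tests used log2(FPKM + 1), unscaled beyond the deposited FPKM. limma 3.58.1 (R 4.3.3) fitted 1 mean per group over 24 libraries, with an intensity trend, and was tested on simulated data. Tests were two-sided, adjusted by Benjamini-Hochberg over 19361 genes, with a threshold of 0.05.

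Named genes are the 12 largest rises and falls (called, no overlap, 5 FPKM or more, not a clone name or small RNA), up to 5 called members per described list with the smallest p, the clock and globin lists, and the 6 smallest interaction p-values. Some genes that the rule names are not reported here. Genes of the heme list beyond these, hsp70l, HSPA9, SLC25A38, the markers OTOF and LHFPL5, and the mhc2 genes were named after their values were seen. The comparison, members and 37 gene lists (1357 of 1630 entries matched) were chosen with earlier results of these data known. Alternatives were another pseudocount, filters, scalings, sources of the spread, a replicate block and libraries left out; list counts without single libraries were added after seeing the data.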

Additional observations from a re-analysis of the deposited data

Results flagged for a closer look

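For 11 named genes the change at 5 h differed between the populations by the interaction test (limma, Benjamini-Hochberg, adjusted p under 0.05), given as GFP+ change minus GFP- change; the median over all genes was 0.17. Toward GFP- cells these were hsc70 (-4.10) and SLC10A4 (-1.10). Toward GFP+ cells they were HSPD1 (1.11), HSPA4 (0.99), NOMO2 (0.98), NUP155 (0.74), CANX (0.63) and LYPLA2 (0.56), which rose in GFP- cells and were higher by value in GFP+ cells too, and CYP27A1 (1.2), ccl34b.4 (1.19) and ccl38a.4 (2.31), which fell in GFP- cells. ccl38a.4 was listed at 0 in all 6 GFP+ libraries of the 5 h and mock groups, so its difference is the GFP- fall with the sign turned round. SLC10A4 and ccl34b.4 were also low in GFP+ cells, under 1 FPKM in every library of both groups.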

How the results depend on the processing

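The 258 calls of 5 h against mock became 136 with a pseudocount of 0.1, 170 with a filter at 5 FPKM, 437 under quantile scaling, 162 with the spread of the 12 GFP- libraries, 30 with that of the 6 own libraries and 78 with a log2 change of 1; leaving out 1 library gave 72 to 248. No filter (274) and median-of-ratios scaling (265) stayed within 1.5 times. The 0 calls of 5 h against 3 h became 6 with the own libraries and stayed 0 (0 to 0) with 1 library left out. The 597 calls of 1 h against mock became 970, 193 and 144 under quantile scaling, the own libraries and a log2 change of 1, and 226 to 484 with 1 library left out. The 616 interaction calls became 117 and 159 under median-of-ratios and quantile scaling, 158 with the own libraries, 111 with a log2 change of 1 and 980 with a replicate block by sort, and 236 to 551 with 1 library left out. The spread of the 12 GFP- libraries was not run for the interaction, which needs GFP+ libraries. The left-out and own-library fits also had fewer samples. The cause of these differences was not tested.

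A replicate block by number gave 323 calls of 5 h against mock. Same-numbered libraries of these groups deviated from their means with correlations of 0.0511, 0.0136 and 0.146, so the numbers were not taken as pairs. Of 43 named calls, 36 were lost with the own libraries, 26 without 5 h replicate 2, 22 without mock replicate 2, 16 with a log2 change of 1, 15 with the 12 GFP- libraries and 13 with a pseudocount of 0.1; 1 was lost with the block, and none changed sign. FPKM hold no counts, so precision at low levels is known from the libraries' spread alone.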

Other observations

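Class II major histocompatibility genes rose at a low level; they were chosen after their values were seen. mhc2dab (ENSDARG00000079105), a beta chain that presents antigen, had 9.60, 6.57 and 7.74 FPKM at 5 h, against 3.42, 3.74 and 3.18 FPKM in mock (1.00 ± 0.15, limma adjusted p = 0.00224), and 2.33 ± 0.573 FPKM at 1 h (SD, n = 3). mhc2daa (ENSDARG00000031745), an alpha chain, had 3.27, 2.04 and 3.40 FPKM at 5 h, against 0.824, 0.849 and 1.18 FPKM in mock (0.99 ± 0.17, limma adjusted p = 0.00649), and 0.916 ± 0.417 FPKM at 1 h. Both had 5 h libraries wholly above mock and were called with any 1 library left out. At 3 h, on the date of the 5 h libraries, they averaged 6.39 and 3.40 FPKM. Class II genes have close copies that vary between fish, and the libraries come from pools of larvae, so the part of the pools in this difference was not tested.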
